A study of Homo sapiens with 8 samples.

Results

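The early transcript response to benzo[a]pyrene (BaP) was described from the arrays taken at 12 h: 2 arrays of HepG2 cells given BaP and 2 arrays of HepG2 cells given the solvent dimethyl sulfoxide (DMSO), which are 4 of the 8 arrays in the study. The other 4 arrays hold the same BaP and DMSO groups at 24 h, with 2 arrays each. All 19002 probe sets that carry an Ensembl gene ID were measured on every array, and each is called a gene here. HepG2, an established human line, was grown from a liver tumour, so every group shares 1 tumour cell background. Compound or solvent was given in fresh medium at 80% confluence, per the labels' protocols. The DMSO solvent was at 0.5%, and no dose of BaP is stated in the labels. Each group rests on 2 samples, which the titles name as biological replicates.

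BaP is a polycyclic aromatic hydrocarbon formed when organic matter burns incompletely. It is a ligand of the aryl hydrocarbon receptor, a transcription factor that moves to the nucleus once bound and switches on genes for enzymes that oxidise foreign compounds, among them cytochromes P450. Some of the oxidised products bind DNA, and such adducts are known to call on DNA repair and on the p53 damage response. Liver cells are a main site of this metabolism, and HepG2 cells are widely used to study it.

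The files do not pair Ensembl IDs with gene names, and the gene table used here holds no Ensembl IDs, so no Ensembl ID is given a gene name or a role below. For the same reason the HepG2 label was not checked against liver markers and the pathway lists were not counted. The response is therefore given by its size, direction, level and course, with 4 genes shown by ID. 1 array stood apart in its control probe sets: the 3 probe sets for 18S ribosomal RNA read 12.03, 11.33 and 10.43 on DMSO 24 h replicate 2, against at least 13.68, 12.51 and 11.39 on the other 7 arrays. That array enters the values at 24 h and, through the shared spread, the tests at 12 h, so results at 24 h are also given without it. The 4 genes are the 2 highest and 2 lowest by log2 fold change at 12 h among called genes whose groups did not overlap, a condition that 10274 of 19002 genes (54.1%) met with or without a call.

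At 12 h, 1571 of 19002 genes (8.27%) differed between BaP and DMSO cells at an adjusted p under 0.05 (limma over 8 arrays, Benjamini-Hochberg over all genes). Of these, 645 genes (3.39%) were higher in BaP cells and 926 genes (4.87%) were lower. The count was 708 or 679 when replicate 1 or 2 of the BaP arrays at 12 h was left out, and 743 or 614 when replicate 1 or 2 of the DMSO arrays at 12 h was left out, with more lower than higher genes each time. In the full fit, more genes were called lower than higher, while the largest single change was an increase. Across all 19002 genes the median log2 fold change was 0.02 on the scale of the deposited values, and 17249 genes changed by less than 1.25-fold. RMA (robust multi-array average) forces the probe intensities of all arrays to 1 common distribution. A median near 0 is thus favoured in advance, and these values cannot show a rise or fall of total RNA. When each array was instead shifted to equal levels of its poly-A control probe sets, the median of all genes moved to 0.47, and 1951 genes were called higher and 60 lower in BaP cells. The excess of lower genes therefore holds relative to the median of all genes and turned round under that scaling. The scaling adds 1 shift per array to every gene, and its differences between replicate arrays enter the spread of every gene. Under it, limma's adjusted p for the top gene, ENSG00000140465, was 1.21e-184, against 1.29e-08 in the full fit. Its spread estimates were thus unlike those of the full fit. Counts and adjusted p-values under this scaling, here and below, are therefore not comparable with the others and are a description. All 24 poly-A probe sets read highest on the DMSO arrays at 12 h. In BaP over DMSO they ran from -0.63 to -0.32 at 12 h and from -0.07 to 0.42 at 24 h. Whether this offset came with BaP or with those DMSO arrays was not tested. In these bulk samples, a change in the make-up of the culture and a change in RNA per cell cannot be told apart.

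The gene at the top of the ranking was ENSG00000140465. Its log2 level was 13.25 and 13.25 on the BaP arrays at 12 h, against 6.57 and 6.83 on the DMSO arrays at 12 h. Both BaP arrays lay far above both DMSO arrays, and the gap between replicate arrays was small beside that distance. The log2 fold change was 6.55 ± 0.10 (limma moderated standard error, n = 2 arrays a group), a 93.8-fold higher level, with limma's adjusted p = 1.29e-08. The next largest increase among all genes was far smaller.

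That next gene, ENSG00000108602, had log2 levels of 7.92 and 7.79 on the BaP arrays at 12 h, against 5.36 and 5.05 on the DMSO arrays at 12 h. The groups did not overlap. Its log2 fold change was 2.65 ± 0.19 (limma, adjusted p = 0.000103), a 6.28-fold higher level in BaP cells. The third gene in rank was close behind, with a log2 fold change of 2.41.

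At the other end, ENSG00000173482 had log2 levels of 7.67 and 7.43 on the BaP arrays at 12 h, against 9.71 and 9.64 on the DMSO arrays at 12 h. Both BaP arrays lay below both DMSO arrays, and the log2 fold change was -2.12 ± 0.11 (limma, adjusted p = 1.53e-05). ENSG00000139173 had log2 levels of 6.37 and 6.01 on the BaP arrays at 12 h, against 8.22 and 8.35 on the DMSO arrays at 12 h. It was lower by a similar amount, with a log2 fold change of -2.10 ± 0.14 (limma, adjusted p = 7.16e-05). No decrease came near the size of the top increase, and the third lowest gene stood at -2.07.

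**Figure D1:**
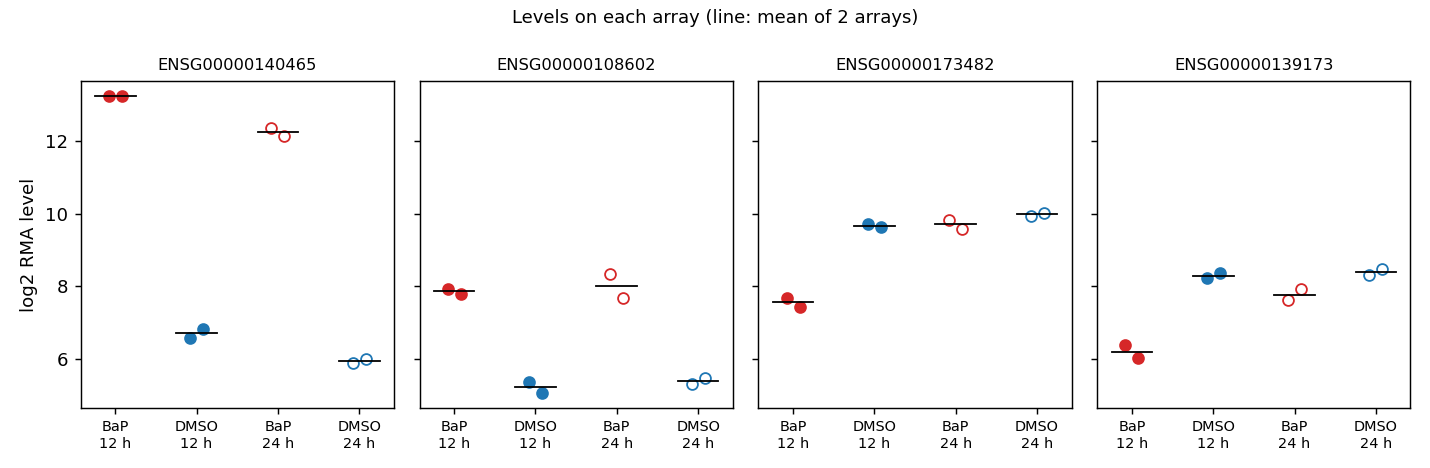
Log2 RMA level (vertical axis) of the 4 genes on each array, by group (horizontal axis). Points are single arrays, filled at 12 h and open at 24 h, and lines are means of 2 arrays; at 12 h ENSG00000140465 stood at 13.25 in BaP cells and near 6.70 in DMSO cells, and the BaP levels of ENSG00000173482 and ENSG00000139173 stood nearer to DMSO at 24 h than at 12 h.

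Below these extremes, the called changes were mostly modest. A change of 4-fold or more was measured for 8 genes higher and 3 genes lower in BaP cells. Between 3-fold and 4-fold lay 3 higher and 13 lower genes, and between 2-fold and 3-fold lay 37 higher and 59 lower genes. All genes in these classes passed the test. Lower genes therefore outnumbered higher ones at 2-fold to 4-fold, and higher genes outnumbered lower ones at 4-fold and above.

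From 1.5-fold to 2-fold, 105 higher and 200 lower genes were called, which were 95.3% of the genes in that range. The class with the most called genes ran from 1.25-fold to 1.5-fold, with 383 higher and 517 lower, or 68.7% of its genes. Under 1.25-fold, 109 higher and 134 lower genes passed, 1.41% of that class. The median called increase was 0.43 and the median called decrease was -0.47 on the log2 scale, and both medians are shifted outwards because the genes were selected for passing the test.

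Called genes were found more often at middle and higher levels than at low ones. When the genes were split into 5 classes of equal size by mean level at 12 h, the dimmest class held 35 called higher and 22 called lower in BaP cells. The classes above it held 45 and 79, 130 and 223, 215 and 335, and, for the brightest, 220 called higher and 267 called lower. The rise thus did not go on to the brightest class, where fewer lower genes were called than in the class below it. Higher genes outnumbered lower ones only in the dimmest of the 5 classes. The gap between replicate arrays moved with level too: its median was 0.0983 in BaP and 0.0997 in DMSO cells in the dimmest class, and 0.0548 in BaP and 0.0661 in DMSO cells in the brightest. Its part in the counts was not tested.

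**Figure D2:**
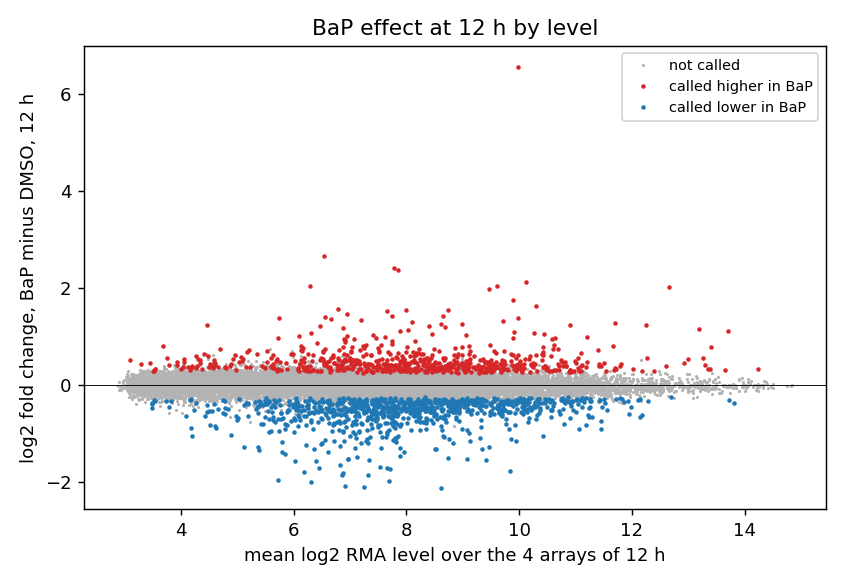
Log2 fold change of BaP over DMSO at 12 h (vertical axis) against mean log2 RMA level over the 4 arrays of 12 h (horizontal axis), 1 point a gene. Red points are the 645 genes called higher in BaP cells, blue points the 926 called lower and grey points the rest; the point at 6.55 is ENSG00000140465.

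Whether the early response was still seen later was asked with the arrays of 24 h, which have DMSO samples of their own. At 24 h, 1153 genes (6.07%) were called, 565 higher (2.97%) and 588 lower (3.09%). The count of 1153 became smaller with each of the 8 arrays left out in turn. It fell least without DMSO 24 h replicate 1 and most without BaP 24 h replicate 2. Under the poly-A scaling it was 110. Genes called in the same direction at both times numbered 506, which were 32.2% of those called at 12 h and 43.9% of those called at 24 h, and 7 genes were called in opposite directions. Both counts use 1 shared estimate of the spread per gene. Of the 645 genes called higher at 12 h, 223 were called higher at 24 h, and the median log2 fold change of the 645 genes stood at 0.43 for 12 h and 0.21 for 24 h. Of the 926 called lower at 12 h, 283 were called lower at 24 h, and the median of the 926 genes stood at -0.47 for 12 h and -0.21 for 24 h. Without DMSO 24 h replicate 2, 142 of the 645 were called higher and 116 of the 926 lower at 24 h, with medians of 0.23 and -0.19. Genes chosen for a large value at 12 h tend to have smaller values on other arrays by the choice alone. The size of that shift was not measured, so these medians cannot tell it apart from a fading response.

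The difference between the effects at 12 h and 24 h was tested for each gene, and 122 of 19002 genes (0.642%) passed. Relative to 12 h, the BaP effect at 24 h was higher for 97 of them (0.51%) and lower for 25 (0.132%). The count was 31 to 88 with 1 array left out, among them 45 without DMSO 24 h replicate 2 (42 higher and 3 lower). Under the poly-A scaling 22 genes passed, 1 higher and 21 lower at 24 h, so the direction turned round. The poly-A levels that set this scaling were highest on the DMSO arrays at 12 h. Of the 122 genes that passed in the full fit, those called lower at 12 h comprised 86 with a higher and 1 with a lower effect at 24 h. Those called higher at 12 h comprised 1 with a higher and 20 with a lower effect at 24 h. These counts share the arrays of 12 h with the choice of genes, so their direction is a description.

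The 2 top increases were also called at 24 h, while the third gene in rank stood at 0.85 there, against 2.41 at 12 h. ENSG00000140465 had log2 levels of 12.35 and 12.15 on the BaP arrays at 24 h, against 5.88 and 5.99 on the DMSO arrays at 24 h, a log2 fold change of 6.32 ± 0.10 (limma, adjusted p = 1.76e-08). The effect at 24 h minus that at 12 h was -0.23 ± 0.15 and did not pass (limma, adjusted p = 0.546). ENSG00000108602 had log2 levels of 8.34 and 7.68 on the BaP arrays at 24 h, against 5.31 and 5.46 on the DMSO arrays at 24 h. Its effect was 2.62 ± 0.19 (limma, adjusted p = 0.000315), with a difference between times of -0.03 ± 0.27 (limma, adjusted p = 0.978).

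The effects on the 2 lowest genes lay nearer to 0 at 24 h. ENSG00000173482 had log2 levels of 9.83 and 9.59 on the BaP arrays at 24 h, against 9.94 and 10.02 on the DMSO arrays at 24 h. Its effect there was -0.27 ± 0.11 and did not pass (limma, adjusted p = 0.188), and the difference between times was 1.85 ± 0.15 (limma, adjusted p = 0.00247). ENSG00000139173 had log2 levels of 7.62 and 7.91 on the BaP arrays at 24 h, against 8.30 and 8.47 on the DMSO arrays at 24 h. It was still lower in BaP cells, by a log2 fold change of -0.62 ± 0.14 (limma, adjusted p = 0.0357), and its difference between times was 1.48 ± 0.19 (limma, adjusted p = 0.0175). Both genes were chosen as the lowest at 12 h and the difference reuses those arrays, so a move towards 0 is favoured by the choice and the adjusted p-values are a description. Without DMSO 24 h replicate 2, the effect on ENSG00000139173 at 24 h was -0.53 and no longer passed (limma, adjusted p = 0.193). Its difference between times no longer passed with 5 of the 8 arrays left out in turn (limma, adjusted p up to 0.0983), nor under the poly-A scaling (0.153). The difference for ENSG00000173482 passed with each array left out (limma, adjusted p up to 0.0218), but not under the poly-A scaling (0.0685).

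The 20 highest and 20 lowest genes at 12 h, chosen by the same ranking, were then followed to 24 h. The 20 highest ran from 1.39 to 6.55 at 12 h, with a median of 1.69. At 24 h they ran from 0.13 to 6.32 with a median of 1.23, and 17 were called higher. The difference between times passed for 6 of them, 5 with a lower and 1 with a higher effect at 24 h, and for 1 to 4 of them with 1 array left out. Without DMSO 24 h replicate 2, 15 of the 20 were called higher at 24 h and the difference passed for 1.

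The 20 lowest ran from -2.12 to -1.55 at 12 h, with a median of -1.78. At 24 h they ran from -2.30 to -0.01 with a median of -0.44, and 13 were called lower. The difference between times passed for 16 of them, all 16 with an effect nearer to 0 at 24 h, and for 10 to 14 of them with 1 array left out. Without DMSO 24 h replicate 2, 7 of the 20 were called lower at 24 h and the difference passed for 14, while under the poly-A scaling it passed for 1. For the 20 highest genes it passed for 6 under that scaling. Over all genes the difference passed for 0.642% in the full fit. Both lists were chosen on the arrays of 12 h that the test uses, so nothing is read from these counts. An effect of at least 2-fold at 24 h was measured for 12 of the 20 highest and 4 of the 20 lowest genes. The median difference, 24 h minus 12 h, was -0.49 for the 20 highest and 1.30 for the 20 lowest genes, and no test compared the 2 lists. The poly-A scaling lowers every such difference by 1 common amount, as it took that of ENSG00000173482 from 1.85 to 1.28. The contrast between the 2 medians therefore depends on the scaling.

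**Figure D3:**
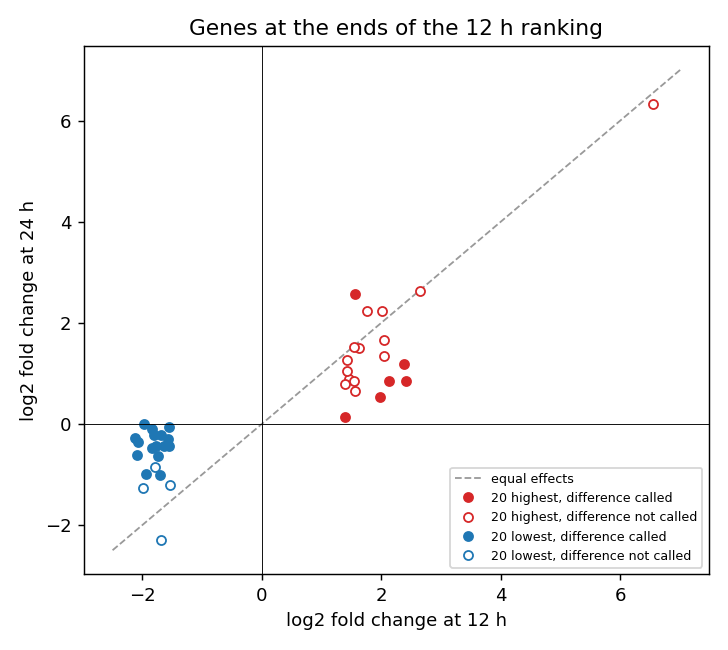
Log2 fold change of BaP over DMSO at 24 h (vertical axis) against that at 12 h (horizontal axis) for the 20 highest (red) and 20 lowest (blue) genes at 12 h. Filled points passed the test of the difference between times (6 red, 16 blue), which reuses the arrays of 12 h that chose the genes, the dashed line marks equal effects, and most blue points lie between the line and 0.

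The array's control probe sets were compared in the same way at 12 h, in a fit of all 19064 probe sets. The 24 probe sets of the poly-A controls, bacterial transcripts commonly added to RNA before labelling, ran from -0.63 to -0.32 in BaP over DMSO, and 2 of the 24 passed as lower. For the 18 hybridisation controls, commonly added at a later step, the range was 0.09 to 0.24 and none passed. Of the 3 probe sets for 28S ribosomal RNA, 2 passed as lower, and the lowest stood at -0.90. The probe sets for GAPDH, a glycolytic enzyme, ran from 0.01 to 0.03, and those for beta-actin, a cytoskeletal protein, ran from -0.11 to -0.05. Apart from the poly-A scaling given above, the part of these controls in the other results was not tested.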

How the data were processed

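Per the labels' protocols, 250 ng of total RNA from HepG2 cells was amplified and biotin-labelled for Affymetrix arrays. Per the submitters' processing notes, the authors used RMA under R 2.12.2, and the values they deposited are log2 levels, 1 per probe set. The assignment of probes to genes and the genome build are not given in the sources used here. A table of the authors' own comparisons gave their deposited log2 fold changes, p-values and false discovery rates, used as an alternative. Its 8 columns of per-sample values were left out. The precision is limited by the number of arrays, 2 a group.

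One mean per group was estimated with limma 3.58.1 in R 4.3.3 from the 8 arrays, for 19002 genes (4 residual degrees of freedom). The BaP effect (BaP minus DMSO) was tested at each time, and so was the difference between the effects at 24 h and 12 h, each adjusted by Benjamini-Hochberg over 19002 genes, with a threshold of 0.05. No filter on dim genes was used. Errors are moderated standard errors from limma. For the 62 control probe sets, the fit was repeated on all 19064 probe sets. The model was also run on simulated data, drawn from its own fitted spread with no shift shared within an array. That run cannot test whether the real arrays meet these assumptions.

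The members and lists were chosen with earlier results of these data known. The rule for named genes took the 20 highest and 20 lowest called genes at 12 h that did not overlap between groups, a fixed set of symbols, the leading members of pathway lists and the genes most different between times. Its parts that need symbols, the gene lists, the cell type markers and the promoter motif could not be applied, because no table used here pairs Ensembl IDs with symbols. Printing 2 IDs at each end is a choice within the ranking. Alternatives were a replicate block, leaving out each array, cyclic loess, a filter on dim genes, a trended prior, scaling to the poly-A controls, a stricter threshold, the arrays of 12 h alone and the authors' deposited table. After seeing the data, the results at 24 h and the differences of the ranked genes were also computed with each array left out and under the poly-A scaling.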

Additional observations from a re-analysis of the deposited data

Results flagged for a closer look

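The effect of BaP on 2 of the genes shown by ID differed between times by the test of the difference. For ENSG00000173482 the effect at 24 h minus that at 12 h was 1.85 ± 0.15 on the log2 scale (limma, adjusted p = 0.00247), with effects of -0.27 at 24 h and -2.12 at 12 h. For ENSG00000139173 it was 1.48 ± 0.19 (limma, adjusted p = 0.0175), with effects of -0.62 at 24 h and -2.10 at 12 h. Both genes were chosen as the lowest at 12 h, and the difference reuses the arrays of 12 h, so a move towards 0 is favoured by the choice. Neither difference passed under the poly-A scaling, and that of ENSG00000139173 was lost with 5 of the 8 arrays left out in turn. In all, the effect differed between times for 122 genes, 97 higher and 25 lower at 24 h, which became 31 to 88 genes with 1 array left out and 22 genes, 1 higher and 21 lower, under the poly-A scaling. Groups of 2 arrays were too small for the search for a far array within a group, but DMSO 24 h replicate 2 lay below the other 7 arrays in all 3 probe sets for 18S ribosomal RNA (12.03, 11.33 and 10.43).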

How the results depend on the processing

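The 4 genes shown by ID kept their direction and stayed past the threshold under all 16 alternatives run. Many of these keep the same log2 fold change at 12 h, so the direction was fixed in advance. They are the replicate block, leaving out an array of 24 h, the filter on dim genes, the trended prior, the stricter threshold, the arrays of 12 h alone and the authors' table. The 4 genes were also chosen on the arrays of 12 h, so their stability is a description. Their log2 fold changes at 12 h ranged over 6.42 to 7.001 for ENSG00000140465, 2.50 to 3.10 for ENSG00000108602, -2.24 to -1.67 for ENSG00000173482 and -2.28 to -1.65 for ENSG00000139173, with limma's adjusted p at most 0.00202. The count of genes changed at 12 h (1571) was 1605 after cyclic loess, 1722 without dim genes, 1976 with a trended prior, 1395 from the arrays of 12 h alone and 1567 in the authors' deposited table. It was 658 at an adjusted p under 0.01. Scaling to the poly-A controls gave 2011, of which 705 were shared with the reported 1571. The spread estimates under that scaling were unlike those of the full fit, so its counts and adjusted p-values are not comparable with the others. Leaving out 1 array gave 614 to 1548: 708 and 679 without BaP 12 h replicate 1 or 2, and 743 and 614 without DMSO 12 h replicate 1 or 2. The count changed at 24 h (1153) was 314 to 1000 with 1 array left out, a setting chosen after seeing the data. The count whose effect differed between times (122) was 325 with a trended prior, 22 under poly-A scaling (1 higher and 21 lower at 24 h), 31 at an adjusted p under 0.01 and 31 to 88 with 1 array left out. Fewer arrays leave fewer degrees of freedom; the cause of the other shifts was not tested. With the replicate block, 1679 genes changed at 12 h and 151 differed between times; the deviations of same-numbered arrays correlated at 0.10 to 0.14 for 5 of the 6 pairs of groups and at -0.05 for BaP 24 h with DMSO 24 h, so not every pair exceeded 0.1 and the replicate numbers were not taken as pairs. Changed members per gene list were not run, since no list could be matched.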
